A study of Mus musculus with 5 samples.

Results

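The step from E4.75 to E5.5 (E is embryonic day) takes the mouse embryo from implantation to the egg cylinder. It was measured here as the log2 ratio at E5.5 minus the log2 ratio at E4.75, each relative to E2.5, for every row of the array table that has both values. These were 15222 of the 15247 rows. The other 25 rows, 1 of which had no value in any column, had no value at E4.75. No row was chosen for its values.

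Around implantation the outer trophectoderm attaches to the uterus, and the primitive endoderm covers the epiblast, the cells from which the fetus forms. The epiblast then grows into a cup-shaped epithelium, the visceral endoderm and extraembryonic ectoderm surround and extend it, and a thick basement membrane is laid down by the parietal endoderm. Known features of this transition are the loss of naive pluripotency genes, the onset of post-implantation epiblast genes, and the secretion of plasma proteins and matrix by the endoderm.

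The groups were ICR mouse embryos at E4.75 and E5.5, with E3.5, E4.5 and E6.0 beside them, all untreated and with no genetic change named in the labels. E2.5 embryos, the reference on every array, came from the oviduct, and embryos of the later stages used here came from the uterus, dissected out from E4.5 on. RNA of whole pooled embryos was amplified by PCR before labelling, with a mean of 28 embryos per pool for E4.75, 17 for E5.5 and 19 for E6.0, against 106 for E2.5. The collection protocol gives 4.8 and 6.5 days where the sample titles give E4.75 and E6.0, and these were matched by their order. Each stage has 1 column of values although the protocol names 3 pools, so no ratio has a replicate error and no test was possible. In whole embryos, fewer cells of a type and less RNA per cell cannot be told apart. The platform's symbols are given below only as labels of rows. Over the 2088 pairs of rows that share a symbol, the difference between E5.5 and E4.75 correlated at -0.03 (a description across rows of 1310 symbols), so no value below is an established measurement of the gene named.

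At E5.5, 862 rows were 2-fold or more above E4.75 (5.66% of all rows) and 652 were 2-fold or more below it (4.28%). The other 90.1% of rows lay within 2-fold between the stages. Large steps went mostly upward. At least 4-fold, 151 rows were higher and 40 lower, and at least 16-fold, 33 were higher and 2 lower. The median difference over all rows was -0.15 on the log2 scale, so the typical row was slightly lower at E5.5. Relative to that shift, with each column centred on its median, 1058 rows were higher and 444 lower, which moved the share of higher rows among those past 2-fold from 56.9% to 70.4%. With the deposited values read as natural logarithms, a base the labels leave unstated, the balance turned to 1482 higher and 1864 lower rows (44.3% higher). Near the threshold, 159 rows lay between 0.9 and 1 and 152 between 1 and 1.1, while 300 lay between -1 and -0.9 and 179 between -1.1 and -1. In all 1514 rows (9.95%) differed by 2-fold or more, fewer than the 2537 (16.6%) between E3.5 and E4.5 and more than the 1149 (7.55%) between E4.5 and E4.75 or the 343 (2.25%) between E5.5 and E6.0. These steps span unequal times, so the counts do not rank the stages by rate of change.

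The largest class of rows in the step was a return towards the E2.5 level. Of the 862 higher rows, 478 (55.5%) had been at least 2-fold below E2.5 at E4.75 and lay within 2-fold of E2.5 at E5.5, and of the 652 lower rows 282 (43.3%) had been at least 2-fold above it and came back. A further 28 higher and 47 lower rows moved towards E2.5 but stayed more than 2-fold away. Rows that crossed from at least 2-fold on one side of E2.5 to at least 2-fold on the other numbered 6 upward and 1 downward. The E4.75 value enters both the difference and the definition of a return, so these counts are a description of the step. With the 5 columns centred on their medians and scaled to one spread, 351 upward and 83 downward rows returned in full. Among lower rows new departures (138) were then more frequent than full returns. Centring alone gave 578 upward and 189 downward full returns. In the values as deposited, new departures from the E2.5 level, within 2-fold at E4.75 and past it at E5.5, were fewer, 135 upward and 103 downward. Rows already past 2-fold that moved further away numbered 31 upward and 29 downward, and the remaining 184 higher and 190 lower rows lay within 2-fold of E2.5 at both stages.

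**Figure D1:**
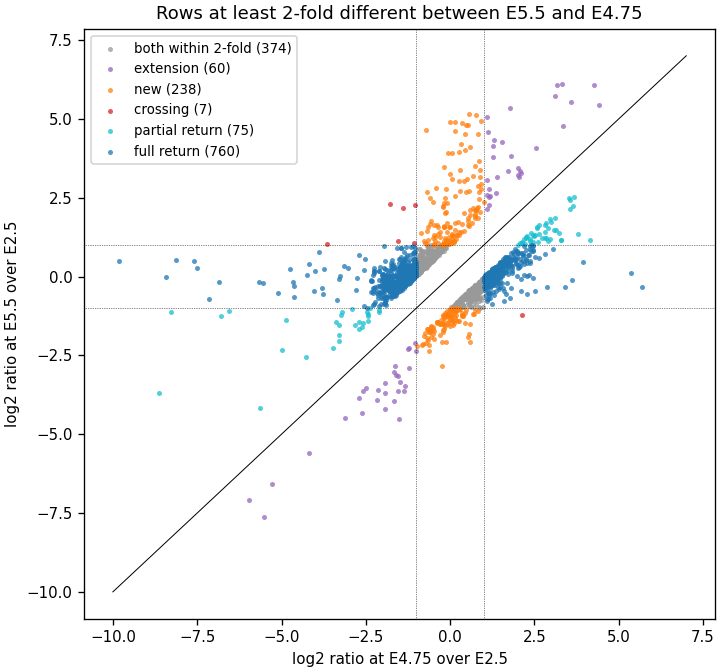
Log2 ratio over E2.5 at E5.5 (vertical) against E4.75 (horizontal) for the rows that differed at least 2-fold between the stages, 1 point per row, coloured by class with the number of rows in brackets; the solid line marks equal values and the dotted lines 2-fold from E2.5. The 760 full returns form the horizontal band around 0, which reaches out to -9.83 on the left.

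The share of rows that came back varied with how far they had departed. Of 1373 rows at least 2-fold lower than E2.5 at E4.75, 847 (61.7%) were no longer 2-fold lower at E5.5, and of 1352 rows at least 2-fold higher, 895 (66.2%) were no longer 2-fold higher. Among rows at least 4-fold lower the share was 30.4% of 257, and among those at least 4-fold higher 23.3% of 210. It did not go on falling with depth among low rows: 10 of the 61 rows between 8-fold and 16-fold lower came back (16.4%), but 18 of the 39 rows at least 16-fold lower did (46.2%). E4.5, a column that the difference does not use, gave 58.2% of 1409 rows at least 2-fold lower and 59.3% of 707 rows at least 2-fold higher that were no longer so at E5.5. Among rows low at E4.5 the share was 16.4% of the 268 at least 4-fold lower and 28.6% of the 28 at least 16-fold lower. Among rows high at E4.5 it was larger at greater distance from 4-fold on, 36.1% of the 97 at least 4-fold higher, 52.4% of the 21 at least 8-fold higher and 83.3% of the 6 at least 16-fold higher. Each of these groups contains the next. Rows high at E4.75 did not share this rise, with 13.3% of the 45 at least 8-fold higher and 15.4% of the 13 at least 16-fold higher. For the 2-fold E4.5 rows the median difference between E5.5 and E4.75 was 0.13 and -0.51. Their median log2 ratio at E4.75 was -1.07 for the low rows and 1.35 for the high rows. Between E4.75 and E5.5, 186 of the 1409 low rows rose and 154 of the 707 high rows fell by 2-fold or more. Rows picked past 2-fold in 1 column can lie within it in another column without a step. The choice of rows therefore partly fixes the shares from E4.75 and from E4.5.

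Of the 747 rows at least 2-fold above E2.5 at E5.5, 61.2% were already so at E4.75, and of the 899 rows at least 2-fold below it 58.5% were, which are similar shares. The shares were further apart for larger ratios. Of the 156 rows at least 4-fold higher 92 were already 2-fold higher at E4.75, against 184 of the 194 at least 4-fold lower. At 8-fold these numbers were 42 of 72 higher rows and 71 of 71 lower rows, and at 16-fold 18 of 33 and 26 of 26. All of these ratios share the E2.5 reference.

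The full returns from below had median log2 ratios, from E3.5 to E6.0 in stage order, of -0.24, -0.50, -1.50, -0.03 and 0.08. In 279 of the 478 rows (58.4%) E4.75 was the only one of the 5 columns past 2-fold, and in 108 (22.6%) E4.5 and E4.75 were. The full returns from above had medians of 0.39, 0.73, 1.46, 0.13 and 0.23 in the order of the stages. For 151 of these 282 rows (53.5%) E4.75 alone was past 2-fold.

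The new upward rows had medians of -0.07, -0.05, 0.06, 1.77 and 1.97 from E3.5 to E6.0, flat until E4.75 and raised at both later stages. In 89 of the 135 (65.9%) E5.5 and E6.0 were the only columns past 2-fold. The new downward rows had medians of -0.05, -0.46, -0.08, -1.41 and -1.29, and 49 of the 103 (47.6%) were past 2-fold at E5.5 and E6.0 only. A further 20 of the 103 had been 2-fold lower at E4.5.

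**Figure D2:**
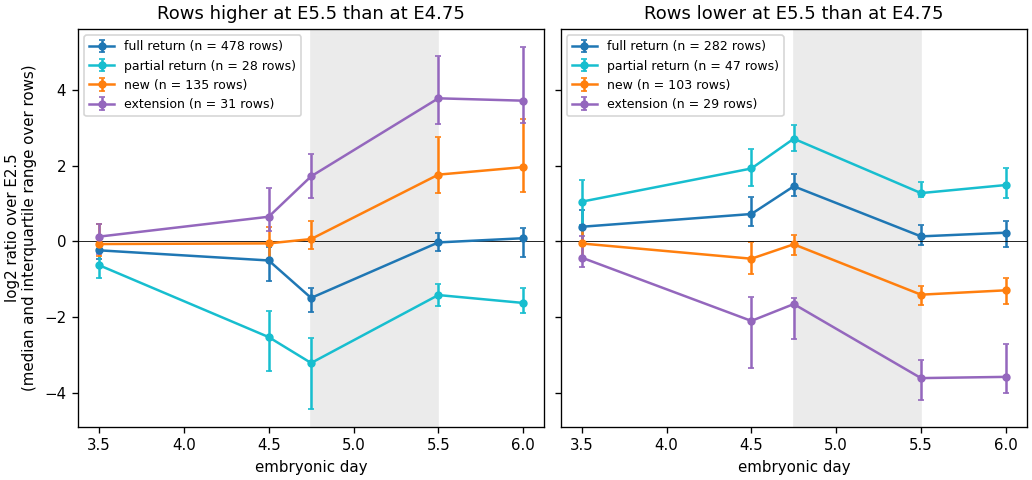
Median log2 ratio over E2.5 of each class by embryonic day, with bars for the interquartile range over rows, for rows higher (left) and lower (right) at E5.5 than at E4.75; the shaded span is the step itself. Medians of full returns are near 0 at E5.5 and E6.0, those of partial returns stay more than 2-fold away, and those of new rows are past 2-fold only at E5.5 and E6.0, with the new lower rows at -0.46 at E4.5.

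Most rows past 2-fold still differed from E4.75 at E6.0. Of the 862 higher rows, 673 (78.1%) were also at least 2-fold higher at E6.0 than at E4.75, and of the 652 lower rows 416 (63.8%) were also at least 2-fold lower. Among all rows, 8.36% were at least 2-fold higher at E6.0 than at E4.75 and 6.04% at least 2-fold lower. These are not a background for rows chosen through their E4.75 value. E4.75 enters both the call and the staying, so an unusual value in that column alone gives both, and the choice of rows partly fixes these shares. By class, 112 of the 135 new upward rows stayed (83.0%), as did 386 of the 478 full returns from below (80.8%), 200 of the 282 full returns from above (70.9%) and 69 of the 103 new downward rows (67.0%). The upward and downward shares both rest on the same E4.75 and E2.5 columns. Between E5.5 and E6.0, 80 of the higher rows moved back down by 2-fold or more and 11 of the lower rows moved back up. Of these 80 rows, 62 were full returns from below. The step from E4.5 to E6.0, which uses neither E4.75 nor E5.5, was at least 2-fold upward in 375 of the 862 higher rows, where 9.73% of all rows were, and at least 2-fold downward in 182 of the 652 lower rows, where 4.72% of all rows were. It was upward in 103 of the 135 new upward rows but in 157 of the 478 full returns from below, many of which had not been low at E4.5.

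The largest upward steps belonged to rows that were extremely low at E4.75 and near the E2.5 level at E5.5. The row annotated Abcb8, a transporter of the mitochondrial inner membrane, read 1.36 at E3.5, then -7.67 and -9.83 in the E4.5 and E4.75 columns, and 0.51 and 0.24 in the last 2 columns. Its difference of 10.34 was the largest of all rows. The row annotated Bcs1l, a chaperone for assembly of respiratory complex III, read -0.10, -6.18, -7.52, 0.26 and 0.12 in the same order. Both were low in the 2 columns around implantation and within 2-fold of E2.5 at E5.5 and E6.0.

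The row annotated Fbp2, the muscle form of the gluconeogenic enzyme fructose bisphosphatase, read -0.06, -3.66, -7.16, -0.73 and -0.07 from E3.5 to E6.0. The row annotated Tom1, an endosomal trafficking adaptor, read -0.24, -1.28, -5.56, -0.22 and -0.36, so that its depth was reached only at E4.75. The row annotated BC003965 read -0.37, -2.69, -5.68, -0.18 and -0.20. Some deep rows came back in part. The row annotated Efl1, a GTPase of ribosome maturation, went from -8.63 at E4.75 to -3.68 and -3.60 in the later columns. The row annotated Arl3, a small GTPase of the cilium, went from -8.29 to -1.14 and -1.26, and that annotated Cfl1, the actin-severing protein cofilin, from -6.80 to -1.25 and -1.84.

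The deep rows that came back lay at a repeating spacing in the table, which was looked for after their values had been seen. Rows 134, 140 and 158, rows 518, 524, 566 and 572, rows 7299, 7305 and 7323, and rows 9520 and 9544 are all among the 40 largest upward steps and lie multiples of 6 apart. Abcb8 is the annotation of row 140, BC003965 of row 518, Bcs1l of row 572, Tom1 of row 7264, Efl1 of row 7299 and Fbp2 of row 7305. Row 7264, also among these 40, has rows 7270 and 7288, both without a value at E4.75, at the same spacing. Of the 18 rows at least 16-fold lower at E4.75 and back within 2-fold at E5.5, 15 had another row at least 16-fold lower, or without a value, at E4.75 that was 6, 12, 18 or 24 rows away. Of the 21 such rows that were still 2-fold lower at E5.5, 3 did. Of the 25 rows with no value at E4.75, 18 did, and 13 of these 25 were at least 2-fold lower at E4.5, while 21 were within 2-fold of E2.5 at E5.5. The part of spot position in these returns was not tested. A wider rule, whatever the E4.75 value, took rows at least 4-fold higher or lower at E5.5 than at E4.75. Those with another such row in the same direction 6, 12, 18 or 24 rows away numbered 47. Without these 47, 819 rows were higher and 648 lower.

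A second group of rows, some with large upward steps, read low in alternate columns. At least 2-fold lower at E3.5, E4.75 and E6.0 but not at E4.5 or E5.5 were 53 rows, 41 of which counted as higher at E5.5, with medians of -1.66, -0.29, -1.44, 0.01 and -1.60. The row annotated Mmp2, a gelatinase of matrix remodelling, was one of them, with -3.27, -0.45, -3.26, 0.0027 and -4.95 from E3.5 to E6.0. Its upward step of 3.26 did not stay. Of the 53 rows, 14 were among the last 247 rows of the table, and 11 of these 14 had row numbers that are multiples of 6. The mirror pattern, at least 2-fold higher in those same 3 columns only, was found in 20 rows, none of them past 2-fold between E4.75 and E5.5.

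Rows raised without a preceding low value formed a separate set. At least 8-fold higher at E5.5 but not 2-fold below E2.5 at E4.75 were 29 rows. Their lowest, median and highest log2 ratios were -0.71, 0.31 and 1.77 in the E4.75 column. In the E5.5 column they were 2.48, 4.51 and 5.35, and in the E6.0 column 1.65, 4.79 and 5.51. The ranges at E4.75 and E5.5 did not overlap, as the choice of a difference of 3 or more makes likely. All 29 stayed higher at E6.0 by the 2-fold rule, and 23 were within 2-fold of E2.5 at each of the first 3 stages. The repeating spacing held for 2 of the 29, against 15 of the 37 rows with a step of this size from a low E4.75 value. The raised rows were not free of a pattern in the table. Those with the largest steps included rows 11527, 11533, 11576, 11719, 11982, 11992, 12086, 12087 and 12102, which lie close together. They also included rows 2428, 4515, 10234, 10817, 12421 and 13426, outside that stretch. The part of position in the raised rows was not tested.

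Among the raised rows, that annotated Rnf122, a RING finger protein, read -0.47, -0.86 and -0.71 up to E4.75, then 4.63 and 5.10. The row annotated Rpl31, a protein of the large ribosomal subunit, read -0.18, -0.43, 0.13, 4.92 and 5.38, but a second row of that symbol differed by 0.10 between the stages. The row annotated Lars, the leucyl-tRNA synthetase, read 0.50, 0.61, 0.55, 5.16 and 4.79. That annotated Ralgds, an exchange factor for the GTPase Ral, read -0.54, -0.59, 0.48, 4.79 and 5.15. All 4 were within 2-fold of E2.5 over the first 3 stages and more than 16-fold above it at the last 2. Rnf122 is the annotation of row 12102, Rpl31 of row 11982 and Ralgds of row 11576, all in the stretch given above. Lars is that of row 2428, outside it.

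Smaller new steps included a row annotated to a gene of the epithelium and a row annotated to a gene of signalling. The counts for the whole lists are given below. The row annotated Ezr, the apical membrane and actin linker ezrin, went from -0.59 at E4.75 to 2.48 at E5.5 and 1.65 at E6.0, while a second Ezr row differed by 0.36. The row annotated Axin1, a scaffold of the complex that destroys beta-catenin, went from 0.25 to 3.03 and 3.04. Extensions of an existing rise included the row annotated Zeb1, a repressor of E-cadherin in epithelial-mesenchymal transition, at 1.01, 1.52, 4.26 and 5.12 from E4.5 to E6.0. The row annotated Vcan, the matrix proteoglycan versican, was already at 4.42 at E4.75 and read 5.45 at E5.5, a difference of 1.03. Upward crossings included the row annotated Ehd4, an endosomal ATPase, from -1.79 to 2.29, and that annotated Asf1a, a histone chaperone, from -1.40 to 2.19, where the second row of each symbol differed by -0.03 and -0.62.

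**Figure D3:**
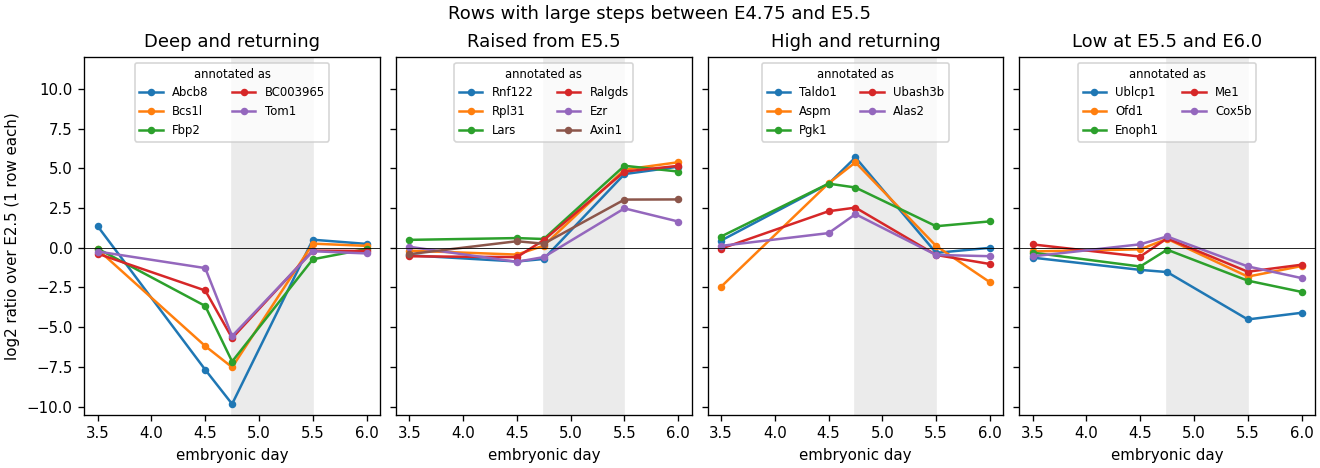
Log2 ratio over E2.5 by embryonic day for single rows with large steps, labelled by their annotated symbols, 1 point per column and no replicate error; the shaded span is E4.75 to E5.5. From left to right the panels show low rows that came back, such as Abcb8 from -9.83, rows raised from E5.5, high rows that came back and rows lowered at E5.5.

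The largest downward steps were returns from above. The row annotated Taldo1, transaldolase of the pentose phosphate pathway, read 0.45, 4.02, 5.68, -0.32 and -0.0039 in stage order. Its difference of -6.00 was the lowest of all rows. The row annotated Aspm, a spindle pole protein, read -2.46, 4.05, 5.37, 0.11 and -2.17, and so was high only at E4.5 and E4.75 while low at both ends of the series. A second Aspm row differed by -0.15. The first, row 15108, is among rows 15001 to 15247, where 14 of the 53 rows low in alternate columns also lay. Its number is a multiple of 6, as were 11 of those 14. The part of position in its step was not tested. The row annotated Pgk1, the glycolytic phosphoglycerate kinase, came down from 3.79 to 1.35 and 1.66, a return in part.

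Other returns from above were single rows, named for the size of their steps or as members of a gene list. The lists that hold Alas2 and Sall4 also had rows that were higher at E5.5, as given below. The row annotated Ubash3b, a phosphatase of lymphocyte receptor signalling, went from 2.53 at E4.75 to -0.45 at E5.5, and that annotated Alas2, the red-cell enzyme that starts haem synthesis, from 2.11 to -0.45. Ubash3b is the annotation of row 15102, which is also among rows 15001 to 15247 with a number that is a multiple of 6. The row annotated Sall4, a zinc finger factor of the pluripotent epiblast, read -0.16, 0.81, 1.59, -0.77 and -0.40 from E3.5 to E6.0, and its second row differed by -0.52. The row annotated Rtf1, a subunit of the transcription elongation complex PAF1, differed by -2.85. Its other rows differed by 0.51 and 2.88, on the opposite side. The 1 downward crossing was the row annotated Eif4enif1, a carrier of the cap-binding protein eIF4E, at 2.75, 3.48, 2.14, -1.22 and -1.04. It was high in the first 3 columns and low in the last 2.

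Rows that newly dropped below E2.5 had a median difference of -1.30, against -1.31 for the full returns from above. The row annotated Ofd1, a centriole protein, went from 0.56 at E4.75 to -1.81 at E5.5 and -1.15 at E6.0. That annotated Enoph1, an enzyme of methionine salvage, went from -0.12 to -2.07 and -2.78, and that annotated Me1, the cytosolic malic enzyme, from 0.59 to -1.51 and -1.07. The row annotated Dnajc15, a mitochondrial J protein, reached -2.09 at E5.5 and was back at -0.34 at E6.0, so its step did not stay. The row annotated Ublcp1, a phosphatase of the proteasome, was already low and went from -1.53 to -4.51 and -4.09. Of the 40 rows at least 4-fold lower, 39 stayed lower at E6.0 by the 2-fold rule, with Dnajc15 as the exception.

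The small steps varied with the place of a row in the table as well. In consecutive runs of 24 rows, places 14 to 24 held 45.8% of all rows but 442 of the 652 lower rows (67.8%), and the median difference was -0.24 there against -0.06 at places 1 to 13. The share of rows at least 2-fold lower ran from 1.42% at place 7 to 8.82% at place 15, and the share at least 2-fold higher from 2.83% at place 15 to 11.8% at place 12. The rank correlation of the difference between rows 24 apart was 0.19, 0.18 between adjacent rows, 0.12 between rows 23 or 25 apart, 0.10 between rows 6 apart and -0.05 between rows 12 apart, a description across rows that share neighbours on the array. With the median of each place subtracted in stretches of the table, an alternative chosen after the values had been seen, 912 rows were higher and 492 lower. The share past 2-fold also differed along the table, from 6.11% of rows 8001 to 9000 to 16.7% of rows 14001 to 15000 and 17.0% of the rows after them. The part of position in the classes was not tested beyond these counts.

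**Figure D4:**
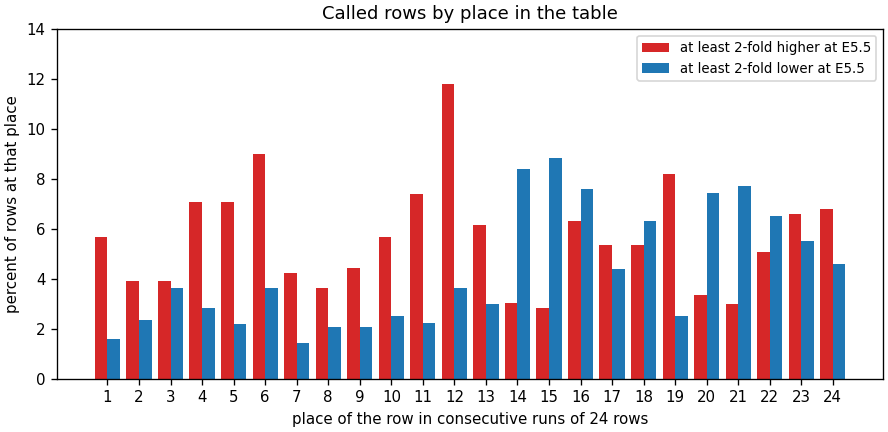
Percent of rows at least 2-fold higher (red) or lower (blue) at E5.5 than at E4.75, by the place of the row in consecutive runs of 24 rows of the table. Lower rows are frequent at places 14 to 16 and 20 to 22, and higher rows peak at place 12 with 11.8%.

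The annotated names were not borne out by second rows. Of 86 rows named by the fixed rule, 62 were past 2-fold between the stages, 27 of these had another row of the same symbol, and in 1 case another row was past 2-fold in the same direction. That case was Rpl35, a large-subunit ribosomal protein, whose 3 rows differed by 1.48, 1.30 and -0.64. Over all symbols, 8 of the 241 other rows of a higher row were also higher and 4 of the 203 other rows of a lower row were also lower, where 5.84% and 4.49% of the 8062 rows with 1 symbol and all 5 values were. Past 2-fold in the opposite direction were 28 of these other rows.

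With that limit, the rows of 16 gene lists were set beside all rows. Among the 8062 rows with 1 symbol, as given above, 5.84% were higher and 4.49% lower, with a median of -0.14, the background for the counts of each list. Together the lists held 567 rows, of which 50 lay 2-fold or more above E4.75 at E5.5 (8.82%) and 26 below it by as much (4.59%). Of the 50 higher rows 24 were full returns, and 12 of the 26 lower ones were. The list medians ran from -0.27 to 0.04, with 10 below the median of all rows and 6 above it.

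Few rows annotated to lineages of the egg cylinder moved 2-fold, as among all rows with 1 symbol (5.84% higher and 4.49% lower). The share in each direction was 2.94% for the trophectoderm list and 5.88% for the primitive and visceral endoderm list. Of 34 rows annotated to trophectoderm and extraembryonic ectoderm genes, 1 was higher and 1 lower, and the median was -0.19. The higher row was Id2, an inhibitor of bHLH factors, which went from -1.97 at E4.75 to -0.65 at E5.5, with a second row at 0.25. The lower row was 1 of 4 annotated H19, an imprinted noncoding RNA, at -1.35, and the other 3 H19 rows differed by -0.75, -0.67 and -0.30. Of 17 rows of primitive and visceral endoderm genes, 1 was higher and 1 lower, with a median of -0.22. These were Fga, the fibrinogen alpha chain, which went from -2.71 to -1.46 (a difference of 0.80, within 2-fold, with scaled columns), and 1 of the rows of Dab2, an endocytic adaptor, at -1.03, while the other Dab2 row differed by 0.15. The lower Dab2 row came within 2-fold under each rescaling tried, at -0.91 with centred columns, -0.84 with scaled columns, -0.87 with the running median subtracted and -0.86 with the median by place subtracted.

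Of 32 rows of parietal endoderm and basement membrane genes, 5 were higher (15.6%, against 5.84% of all rows with 1 symbol) and 0 lower, but the median was -0.26. The higher rows were Mmp2, Col4a1, Vim, Vcan and Itga6. Of them Mmp2 read low in alternate columns, as given above. Col4a1, a chain of basement membrane collagen, went from -1.66 to -0.26 in one row and from 0.40 to 0.32 in the other. The first of these, row 15246, is among rows 15001 to 15247 and its number is a multiple of 6. Vim, the intermediate filament vimentin, went from -1.21 to 0.01, and Itga6, a laminin receptor subunit, from -0.66 to 0.36. Neither Vim nor Itga6 was 2-fold from E2.5 at E5.5 or E6.0.

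Of 20 rows annotated to naive pluripotency genes, 2 were higher and 3 lower, against 5.84% and 4.49% of all rows with 1 symbol, with a median of -0.26. The other 15 lay within 2-fold, and Trim28 had a row on each side. The lower rows were Sall4, Dppa5a, an oocyte and stem cell RNA-binding protein (from 1.43 to 0.21), and 1 row of the corepressor Trim28. A different Trim28 row was higher by 1.61 and the third differed by -0.54. Dppa3, a maternal protein of germ cells, was higher by 1.57, from -0.99 to 0.58. Of 16 rows of post-implantation epiblast and gastrulation genes, 2 were higher, Zeb1 and the HMG-box factor Sox4 (from -0.82 to 0.23), and 0 lower. The median of this list was -0.27, the lowest of the lists, against -0.14 for all rows with 1 symbol. Its row annotated Otx2 lay close to the lower threshold at -0.96. The row annotated Dnmt3l, a cofactor of de novo DNA methylation, was just under the threshold at 0.9957, and past it with centred columns (1.12), scaled columns (1.01) or the running median subtracted (1.06). Of 28 rows of the Nodal, BMP, Wnt and FGF pathways, 2 were higher and 0 lower, with a median of -0.24. The higher rows were Axin1 and 1 row of Smad4, the shared mediator of the first 2 of these pathways (2.78 and 1.07). With the median by place subtracted the Smad4 row differed by 0.76.

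The ribosomal list was the longest. Of 104 rows annotated to ribosomal proteins, 13 were higher (12.5%) and 3 lower (2.88%), against 5.84% and 4.49% of all rows with 1 symbol, with a median of -0.01. Of the 13, 8 were full returns from below, and 7 lay among the 26 ribosomal rows between rows 11001 and 12000, where the median was 0.27 against -0.08 in the other 78. That stretch of the table also held more higher rows in all, 101 of 998. Of 56 rows of oxidative phosphorylation genes 4 were higher and 4 lower, of 41 proteasome rows 5 and 4, of 20 glycolysis rows 2 and 2, and of 74 cell cycle rows 2 and 4. The proteasome rows included Psmd2, at 3.18, 6.07 and 6.03 from E4.75 to E6.0, with a second row at -0.95. Psmd12 had a row on each side, at 3.20 and -1.27, the first of them on the repeating spacing. The lower cell cycle rows Ccnb2 (cyclin B2), Cdc25a, a phosphatase that activates cyclin-dependent kinases, Rfc1, the large clamp-loader subunit, and Ccne1 (cyclin E1) were all full returns from above. The Cdc25a row, at -1.49, came to -0.76 with the median by place subtracted. Of the remaining lists, 2 of 36 rows of the epithelium and junction list were higher and 1 lower, and 0 of 11 cholesterol rows passed in either direction.

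Other lists held genes of other sources of RNA. Of 27 rows annotated to genes of maternal decidua, blood and immune cells, 2 were higher, 1 was lower and the median was 0.04. The globin Hba-a1 had 7 rows, 1 of which went from 0.06 to 3.10, while the other 6 differed by between -0.57 and 0.87. The others past 2-fold were Col3a1, a fibrillar collagen of connective tissue, higher by 1.59, and Alas2. Of 35 oocyte and early cleavage rows 5 were higher (14.3%) and 1 lower (2.86%), and of 23 handling and stress rows 3 were higher (13%) and 1 lower (4.35%). Both shares of higher rows stood above the 5.84% of all rows with 1 symbol. The medians of these 2 lists were -0.11 and -0.18, against -0.14 for all rows with 1 symbol. The part of maternal tissue, oocyte RNA or handling in the step was not tested.

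**Figure D5:**
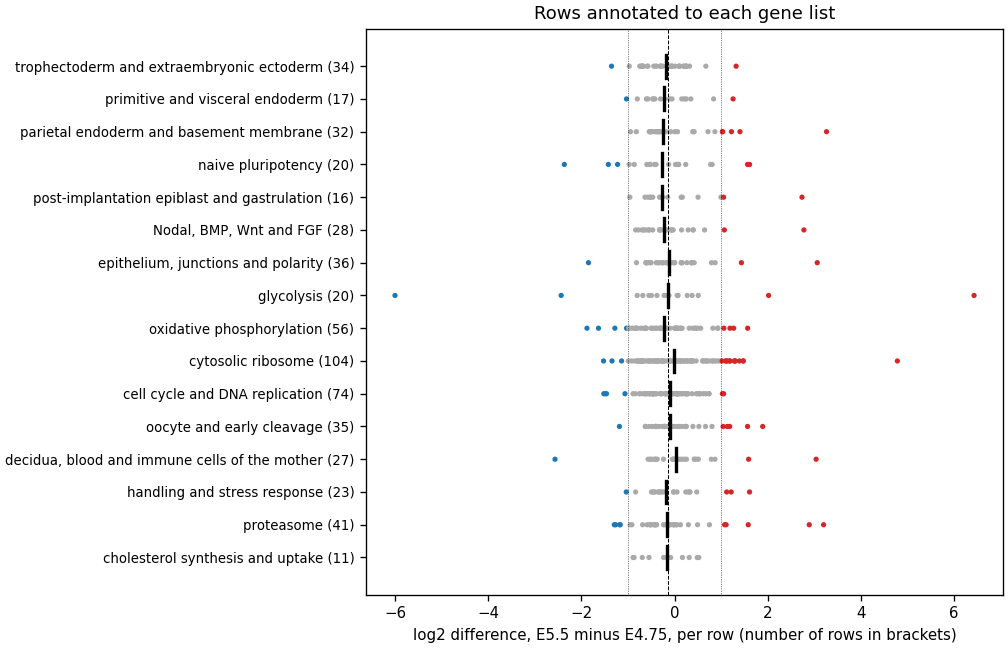
Difference in log2 ratio between E5.5 and E4.75 for each row annotated to 16 gene lists (grey within 2-fold, red higher, blue lower), with the list median as a black bar and the median of all rows with 1 symbol as a dashed line. The medians lie between -0.27 and 0.04, and most rows of every list lie within 2-fold.

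Rows annotated to lineage genes of known course were also looked at. They cannot check the stage labels, because the names are not borne out by second rows. Most lay within 2-fold, as did 90.1% of all rows. Of 17 such genes 13 had a row, and Pou5f1, Cdx2, Fgf5 and Ttr were not analysed here. Of their 21 rows, 2 were higher (Col4a1 and Vcan) and 2 lower (Dab2, whose call was lost as given above, and H19). Among all rows with 1 symbol and 5 values, 5.84% were higher and 4.49% lower. Afp, the alpha-fetoprotein of visceral endoderm, differed by 0.35 and stood at 1.49 at E6.0. Otx2, a factor of the primed epiblast and anterior endoderm, differed by -0.96, and Nanog, of the naive epiblast, by 0.08. Gata4, an endoderm factor, read 4.33 at E4.5 but 0.31, -0.14 and -0.23 from E4.75 to E6.0, so its single high value preceded this step. The Gata4 row, 15139, is also among rows 15001 to 15247, and the part of position in its high value was not tested. Both Sparc rows (0.41 and 0.01), both Gata6 rows (0.21 and -0.30), both Lrp2 rows (-0.61 and -0.80), Lama1 at -0.31 and Eomes at -0.68 lay within 2-fold.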

How the data were processed

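The deposited table holds log ratios made by the authors from 2-colour arrays, 1 column per stage. Per the labels, E2.5 RNA carried Cy5 and the later stage Cy3. No base is named per the labels; the deposited values were read as log2, and every fold rests on that reading. Background correction, normalization and averaging by the authors, not given in the sources used here, could shift any ratio. The number of arrays limits the precision.

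The E4.75 ratio was subtracted from the E5.5 ratio per row, values as deposited, with 2-fold as the threshold. A row stays when E6.0 differs from E4.75 by 2-fold in the same direction. The code that assigns classes was run on simulated rows with planted shifts clear of a small random spread. That checks the code only, and not how reliable the classes of the real rows are. Rows were named by GEO's platform annotation on the row number: 8077 rows had 1 symbol, 369 several and 6801 none, and 8058 matched a current gene through its Entrez number. Named rows were those with 1 symbol and 5 values: the 10 highest and 10 lowest, the 4 largest per direction among full returns, crossings and new rows, up to 3 per list, and 17 key genes. Row numbers of other rows, other list members past 2-fold and all position patterns were picked after values were seen. The members and lists were chosen with earlier results of these data known. Python 3.11.15 with pandas 2.3.3 was used.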

Additional observations from a re-analysis of the deposited data

How the results depend on the processing

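Of 160 counts recomputed under other settings, 85 stayed within 1.5 times the value given and 75 did not. Classes follow the order full return, partial return, crossing, new, extension and both within 2-fold. A 3-fold threshold, which takes fewer rows by construction, gave 295 higher rows (135, 3, 1, 69, 8 and 79 by class, 227 staying) and 119 lower rows (56, 0, 0, 14, 6 and 43, 89 staying). Values read as natural logarithms, which lowers the threshold, gave 1482 higher rows (796, 94, 34, 237 and 71 in the first 5 classes, 1189 staying) and 1864 lower rows (750, 150, 20, 341, 74 and 529, 1202 staying). This reading put more rows in the lower than in the higher group. Symbols in place of rows, fewer by construction, gave 334 higher (182, 7, 0, 57, 11 and 77, 264 staying) and 236 lower (103, 14, 0, 41, 6 and 72, 146 staying). Scaling columns to one spread, which also centred them, gave 403 lower rows (83 full and 7 partial returns, 66 extensions, 108 within 2-fold, 223 staying). Among higher rows it gave 13 partial returns, 10 crossings and 230 new. E4.5 in place of E4.75 gave 318 full returns, 15 crossings and 221 new rows upward, and 153 full returns, 15 partial returns and 4 crossings downward. E6.0 in place of E5.5 gave 11 crossings, 298 new rows and 383 within 2-fold upward, and 7, 192 and 347 downward. The running median over 400 neighbouring rows left 434 lower rows, with 28 partial returns and 118 within 2-fold, and centring also left 118 there. The median by place left 22 partial returns and 2 crossings downward. With staying as E6.0 within 2-fold of E5.5, 637 lower rows stayed. The cause of the changes not said to follow by construction was not tested. Subtracting the median by place and leaving out the rows on the repeating spacing were settings picked once the values were known. The 62 named rows past 2-fold kept their direction under centring, scaling, the running median and the median by place, and 1, 2, 2 and 4 of them in that order came within 2-fold. No paired analysis was possible because each stage has 1 column. No signal over background was used, so what it limits is not known.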
